A study of Citrullus lanatus with 12 samples.

Results

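Messenger RNA levels at the middle of pollen development were set against those at its beginning and end, in anthers of watermelon (Citrullus lanatus). The middle stages are the mononuclear stage and the dikaryophase, the end stages are the tetrad and the mature stage, and each has 3 libraries. All 12 libraries of the series entered the comparison, 6 middle and 6 end, with the contrast fixed as the mean of the 2 middle stages minus the mean of the 2 end stages. It was made gene by gene over the 17484 of 23440 genes that reached 1 CPM (reads of a gene relative to all reads of its library) in at least 3 libraries. Material came from the progeny of the variety Xinteda Zhengkang 9, grown in a greenhouse, with no treatment or altered gene in any group. A portion of every anther was used for staging by microscopy and the remainder for RNA. Whether the 3 libraries of a stage came from different plants is not stated, so the p-values below rest on the spread between these libraries, which may be technical.

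In an anther, meiosis leaves microspores in tetrads, held together by a wall of callose. The released microspores enlarge and receive wall material from the surrounding nutritive layer, the tapetum, and an asymmetric division then gives each a vegetative and a generative cell. The tapetum breaks down as the grains fill, and mature pollen stores transcripts for germination and tube growth. Whole anthers hold all of these cells, so fewer cells of a type and less RNA per cell cannot be told apart in what follows. The deposited table gives gene IDs without names or descriptions, and no table pairing them was used here. Genes are therefore given by ID, nothing is said of their functions, and the stages could not be checked against marker genes.

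The libraries held 55347640 to 65554998 reads in genes, so that 1 CPM stood for 55.3 to 65.6 reads. The first principal component of the tested genes, with 68.9% of the variance, separated the 2 middle stages. Mononuclear libraries scored -65.6 to -43.2 on it, on the side of the tetrad libraries (-136.0 to -125.3). Dikaryophase libraries scored 58.2 to 82.4, on the side of the mature libraries (107.3 to 125.9). The second component, with 15.1% of the variance, ran along the contrast: the middle libraries scored 18.6 to 77.4 and the end libraries -51.6 to -29.1. Mononuclear replicate 2 scored 41.4 on this second component, against 66.4 and 77.4 for the other mononuclear libraries. Dikaryophase replicate 3 scored 40.0, above 18.6 and 19.8, and mature replicate 3 scored -29.1, nearer to the middle libraries than -39.3 and -46.2. Counts are therefore also given without these 3 libraries.

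Genes higher in the middle of the series outnumbered genes lower there, and their differences were larger. Calls required a limma adjusted p under 0.05 (Benjamini-Hochberg over all tested genes) and a log2 difference of at least 1 in either direction. Of the 17484 genes 984 were called, 5.63%, with 644 higher (3.68%) and 340 lower (1.94%) in the middle stages. The log2 difference had a median of 1.84 over the higher genes, with a largest value of 10.39. Over the lower genes the median was -1.46 and the most extreme value -4.76, and over all genes tested the median was -0.01. A 4-fold difference was reached by 291 of the higher and 68 of the lower genes, and a 32-fold difference by 46 and 0. Without mononuclear replicate 2, dikaryophase replicate 3 and mature replicate 3, 587 genes were called higher and 432 lower. The majority of higher genes came with the fold threshold: by adjusted p alone, 2971 genes passed (17%), 1540 higher and 1431 lower.

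Cla002945 had the largest rise among genes of at least 10 CPM whose middle and end libraries did not overlap. It had 217887, 183508 and 369892 normalised reads (reads divided by the factor of the library) in mononuclear libraries and 151702, 113433 and 135603 in dikaryophase libraries, against 17.0, 40.6 and 31.5 in tetrad and 565, 50.1 and 8425 in mature libraries. Every middle library lay far above every end library, and mature replicate 3 was the highest of the end libraries. The log2 difference between middle and end was 10.39 ± 0.91 (SE with the variance shared by the 4 stages, limma adjusted p = 1.64e-05, n = 6 against 6). It was 11.33 without mature replicate 3 and 9.49 without mature replicate 2.

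Cla017784 was the next in size within these limits. Under 10 CPM, Cla002260, described below, had a larger log2 difference, 8.44. Cla017784 had 4862, 2721 and 4492 normalised reads in mononuclear and 3959, 9314 and 11075 in dikaryophase libraries. It had none in any tetrad library and 244, 125 and 1147 in mature libraries. The lowest middle library thus held more than the highest end library, again mature replicate 3. Against a floor of 3 reads over the tetrad stage, its mean CPM was at least 3731-fold higher in mononuclear and at least 8369-fold higher in dikaryophase libraries. The fitted log2 difference of 8.21 ± 0.46 (SE, limma adjusted p = 6.99e-07) depends on the pseudocount, since a stage without reads enters it.

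Among genes of at least 10 CPM whose groups did not overlap, the largest falls were those of Cla005976 and Cla014392, smaller than the largest rises. Without these limits 19 called genes fell further than Cla005976, 14 of them under 10 CPM and 15 with overlapping groups. Cla005976 had 77.0, 814 and 195 normalised reads in mononuclear and 1501, 2298 and 1539 in dikaryophase libraries, against 3769, 2883 and 4563 in tetrad and 6124, 5154 and 4074 in mature libraries. The groups did not overlap, but the dikaryophase libraries lay closer to the end libraries than the mononuclear ones did. The log2 difference was -2.76 ± 0.44 (SE, limma adjusted p = 0.00125). Its dikaryophase alone did not pass against either end, with log2 differences of -1.07 against tetrad (limma adjusted p = 0.225) and -1.53 against mature libraries (limma adjusted p = 0.138).

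Cla014392 had 104, 168 and 94.7 normalised reads in mononuclear and 95.7, 97.1 and 104 in dikaryophase libraries, against 1832, 1748 and 3347 in tetrad and 177, 192 and 246 in mature libraries. All middle libraries were below all end libraries, with the tetrad libraries far above and the mature ones just above. The log2 difference was -2.62 ± 0.20 (SE, limma adjusted p = 6.39e-06). Most of it came from the tetrad side: the dikaryophase mean was lower by 4.46 (log2) than the tetrad mean and by 1.03 than the mature mean. The mononuclear mean was lower by 4.21 than the tetrad mean. Against the mature mean it was lower by 0.77 and did not pass (limma adjusted p = 0.0548).

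**Figure D1:**
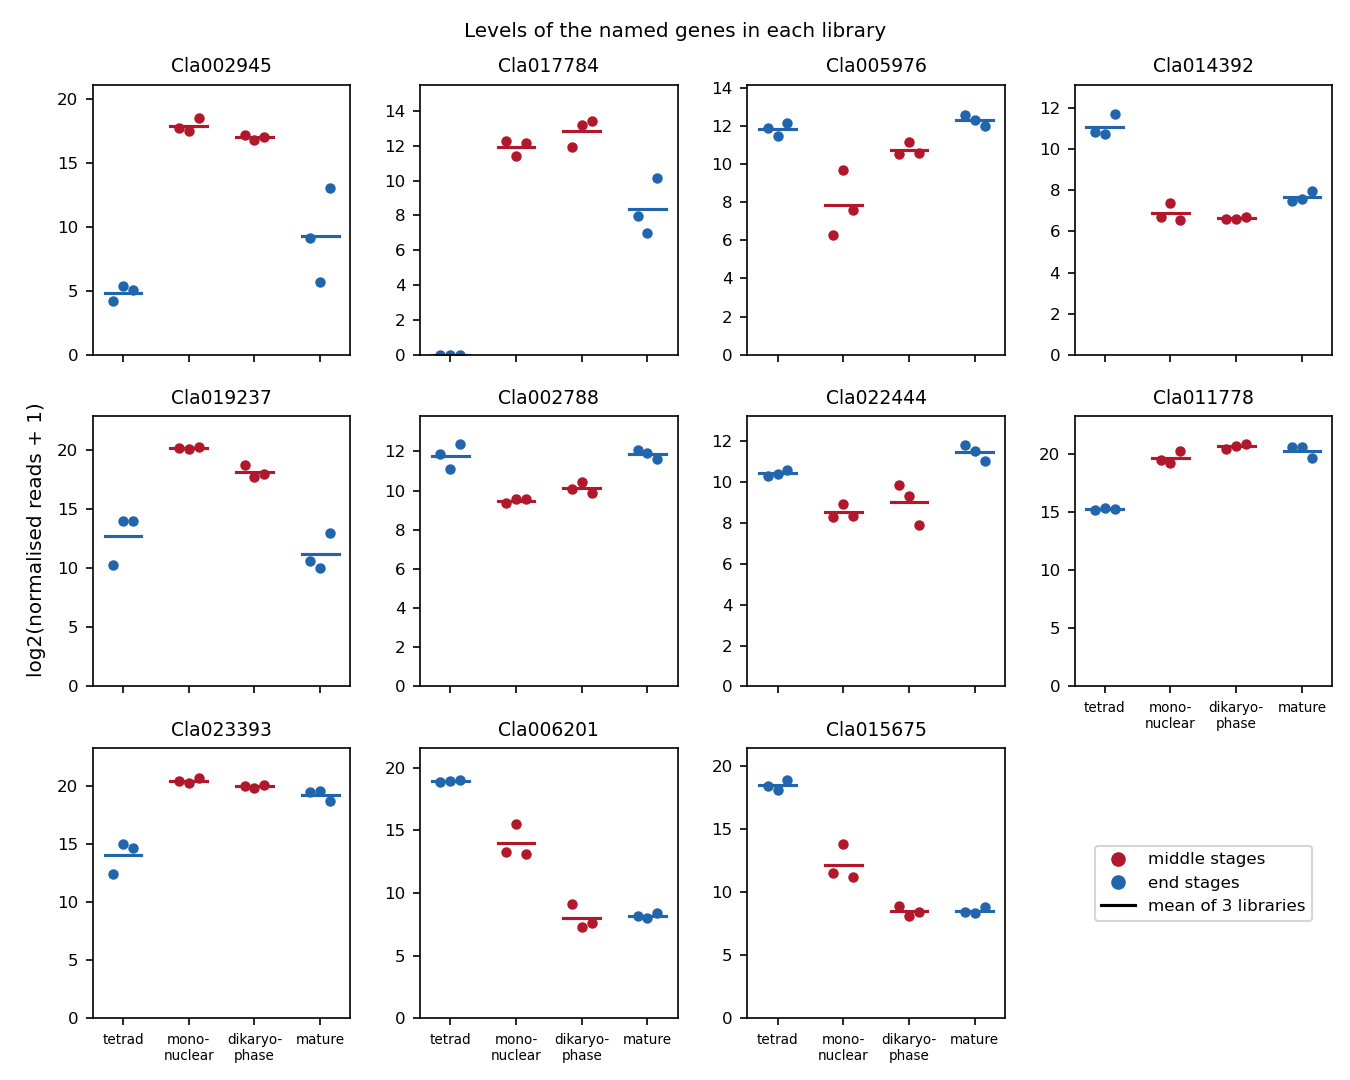
Levels of the 11 named genes in each library, as log2(normalised reads + 1), by stage in order of development; each point is a library (3 per stage), lines are stage means, and the middle stages are red and the end stages blue. Cla002945, Cla017784 and Cla019237 were far higher at both middle stages than at both ends. Cla011778 and Cla023393 were lowest in tetrad libraries, and Cla006201 and Cla015675 were high in tetrad libraries with a low level at the mature stage.

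The average over 2 stages on each side lets unlike courses through the same call, so the called genes were sorted by the pairwise comparisons of each middle stage with each end stage, from the same fit and with the same thresholds. These comparisons use the libraries of the contrast, so their counts describe the called genes and are no further support. Of the 644 higher genes, 525 were called higher in mononuclear than in tetrad libraries, where 4.97% of all genes tested were, and 446 in dikaryophase than in tetrad libraries, where 8.04% of all genes were. Against the mature stage the counts were smaller: 397 were higher in mononuclear libraries (7.8% of all genes) and 322 in dikaryophase libraries (3.01% of all genes). Of the 340 lower genes, 253 were called lower in mononuclear than in tetrad libraries (4.02% of all genes) and 223 in dikaryophase than in tetrad libraries (6.75% of all genes). Against the mature stage, 137 were lower in mononuclear (7.68% of all genes) and 93 in dikaryophase libraries (1.93% of all genes).

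**Figure D2:**
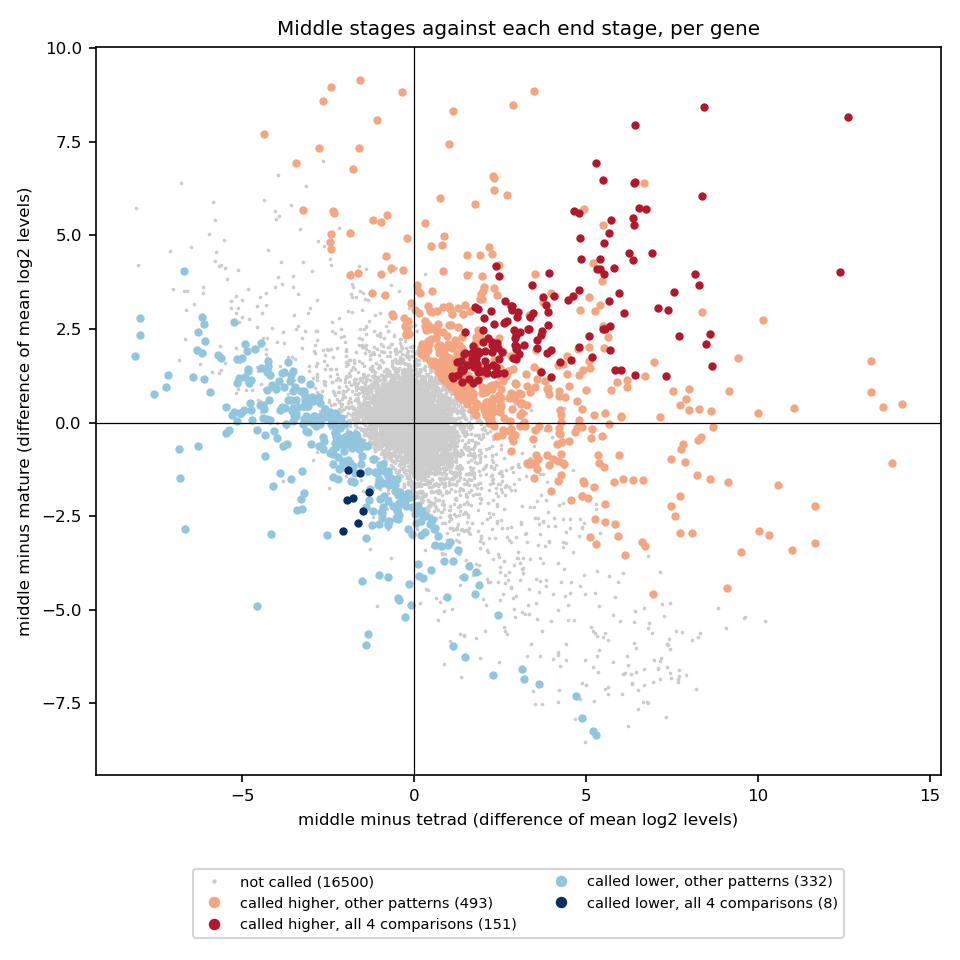
Difference between the mean of the middle stages and the tetrad mean (x axis) and the mature mean (y axis) on the log2 scale, 1 point per tested gene; colours mark the 644 genes called higher, the 340 called lower and the 151 and 8 of them called in all 4 pairwise comparisons. Many called genes lie along the axes or beyond them, that is, their middle mean is near that of 1 end stage or lies between the ends.

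Genes that passed all 4 comparisons were far more frequent on the higher side. They numbered 151 of the 644 higher genes (0.864% of all genes tested) and 8 of the 340 lower genes (0.0458% of all genes tested). Without the 3 libraries named above the counts were 129 and 8. The 8 rested on single libraries: leaving out mononuclear replicate 2 gave 16 and leaving out dikaryophase replicate 3 gave 2. With tetrad replicate 2 left out there were 4, and with tetrad replicate 3 or mononuclear replicate 1 left out there were 5. The 151 genes had a median log2 difference of 2.91, and 93 of them had their highest mean at the mononuclear stage. Between the middle stages, limma called 0 of the 151 higher in dikaryophase than in mononuclear libraries (3.46% of all genes tested; 2 of the 151 at an unadjusted p under 0.05, and 1 called by limma-voom) and 9 lower, 5.96% of the set (2.89% of all genes). Between the ends, 48 were called higher in mature than in tetrad libraries, 31.8% of the set, and 4 lower, 2.65% (10.2% of all genes in each direction).

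Among the genes of this set with at least 10 CPM, Cla002945 had the largest smallest-of-4 pairwise log2 difference, 7.73, and Cla019237 followed it. Of the genes under that limit, 1 exceeded it, with 7.92. Cla019237 had 1216672, 1138591 and 1256946 normalised reads in mononuclear and 433836, 216754 and 260019 in dikaryophase libraries, against 1255, 16352 and 15912 in tetrad and 1595, 1035 and 8105 in mature libraries. The mononuclear libraries were the highest, and every end library lay below every middle one. The gene took 1.81% ± 0.0702 of all reads at the mononuclear stage (SD, n = 3) and 0.505% ± 0.183 at the dikaryophase, against 0.0184% ± 0.0141 at the tetrad stage and 0.00614% ± 0.00700 at the mature stage. The log2 difference between middle and end was 7.19 ± 0.65 (SE, limma adjusted p = 2.19e-05), and 6.58 without tetrad replicate 1, the lowest tetrad library.

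Among the 8 genes lower in all 4 comparisons, all 8 had their lowest mean at the mononuclear stage. Cla002788 had 652, 757 and 752 normalised reads in mononuclear and 1070.4, 1404 and 932 in dikaryophase libraries, against 3746, 2163 and 5354 in tetrad and 4377, 3909 and 3102 in mature libraries. Both ends stood at about the same level, with a log2 difference of 0.10 between mature and tetrad libraries that did not pass the test (limma adjusted p = 0.807). The log2 difference between middle and end was -2.02 ± 0.19 (SE, limma adjusted p = 3.47e-05). Cla022444 had 314, 489 and 322 normalised reads in mononuclear and 930.2, 623 and 237 in dikaryophase libraries, against 1248, 1336 and 1503 in tetrad and 3578, 2959 and 2096 in mature libraries. The highest middle library, dikaryophase replicate 1, stayed below the lowest tetrad library. The log2 difference was -2.16 ± 0.28 (SE, limma adjusted p = 0.000353).

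The other called genes fell into classes by the comparisons they passed. On the higher side, 137 genes were above the tetrad stage at both middle stages with no call against the mature stage, and another 71 were above the tetrad stage while the mature stage was called above at least 1 middle stage. The mirror classes were smaller: 44 genes were above the mature stage only, and in 30 more the tetrad stage was called above a middle stage. In these classes "only" means that no call was made against the other end, which does not show equal levels. Cla014391, called against the tetrad stage only, still had a log2 difference of 2.96 between middle and mature stages. The mononuclear stage alone was above both ends in 51 genes and the dikaryophase alone in 7. On the lower side the 2 largest classes were those against the tetrad stage, with 116 genes below the tetrad stage only and 67 in which the mature stage was called below a middle stage. In 28 genes both middle stages were below the mature stage only, in 29 the tetrad stage was also called below a middle stage, and in 19 the mononuclear stage alone was below both ends. For 2 of the lower genes no pairwise comparison was called. With no call in the other direction, exactly 3 of the 4 comparisons were passed by 123 higher and 36 lower genes, and a single one by 22 and 23. Other mixtures, among them any further genes with 3 or 1 passed and a call in the other direction, were held by 8 higher and 12 lower genes. The share of all genes tested with the same calls was not worked out, so these counts describe the called genes only.

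**Figure D3:**
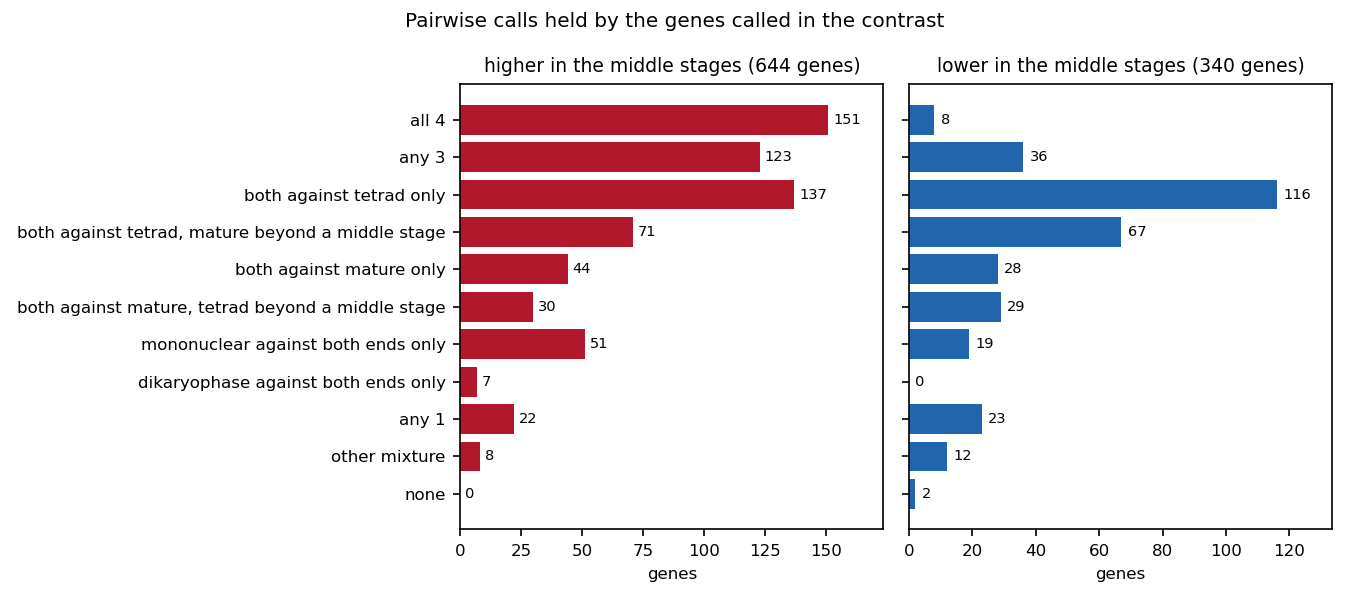
Number of genes called in the contrast that hold each set of pairwise calls, for the 644 genes higher (left) and the 340 lower (right) in the middle stages; bars start at 0 and each gene is counted once. The higher genes most often passed all 4 comparisons (151) or those with the tetrad stage only (137), and the lower genes most often those with the tetrad stage only (116).

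The ends themselves differed for most of the called genes. Of the 644 higher genes, 275 were also called higher in mature than in tetrad libraries and 120 lower, where 10.2% of all genes tested were called in each direction. Of the 340 lower genes, 89 were called higher in mature than in tetrad libraries and 185 lower. Between the middle stages, 86 of the higher genes were called higher in dikaryophase than in mononuclear libraries (3.46% of all genes) and 111 lower (2.89% of all genes). Of the lower genes, 75 were called higher at the dikaryophase and 68 lower.

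The genes above the tetrad stage only, 137 in number, took 3.87% ± 0.881 of all reads in mononuclear and 5.18% ± 0.620 in dikaryophase libraries, against 0.144% ± 0.0268 in tetrad and 3.61% ± 0.935 in mature libraries (each with its SD, n = 3). Most of this was from 2 genes, Cla011778 and Cla023393, which took 3.44% ± 0.777 in mononuclear and 4.41% ± 0.427 in dikaryophase libraries, against 0.0996% ± 0.0257 in tetrad and 3.20% ± 0.920 in mature libraries. The other 135 genes took 0.428% ± 0.104 in mononuclear and 0.771% ± 0.212 in dikaryophase libraries, against 0.0444% ± 0.00120 in tetrad and 0.408% ± 0.0504 in mature libraries. The 44 genes above the mature stage only took 0.902% ± 0.0468 in mononuclear and 0.383% ± 0.0857 in dikaryophase libraries, against 0.314% ± 0.0713 in tetrad and 0.0437% ± 0.00800 in mature libraries. The 67 genes called lower whose mature level was below a middle stage took 0.176% ± 0.143 of reads in mononuclear and 0.0201% ± 0.000993 in dikaryophase libraries, against 2.39% ± 0.0959 in tetrad and 0.0240% ± 0.00320 in mature libraries. Of the 2.39%, Cla006201 took 0.839% and Cla015675 0.608%. These genes lost most of their reads after the tetrad stage and were called lower in the middle although the mature libraries held about as few reads as the dikaryophase libraries.

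Stage means placed the highest level of 327 of the 644 higher genes at the mononuclear stage and of 242 at the dikaryophase, but of 61 at the mature and of 14 at the tetrad stage. In 423 of them both middle means lay above both end means, as they did in 14.2% of all genes tested. The lowest mean fell at the tetrad stage for 403 and at the mature stage for 241 higher genes. Of the 340 lower genes, both middle means lay below both end means in 122 (13.9% of all genes tested), and the highest mean was at the tetrad stage for 219 and at the mature stage for 121. Where stage means were tied for the lowest, which held for 13 of the 984 genes, the earlier stage was counted.

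The direction of a call also depended on the scale of averaging. The contrast averages log2 levels, and for 54 of the 644 higher genes (8.39%) the mean of the normalised reads themselves was lower in the middle than in the end libraries. All 54 had their highest mean at an end stage, 46 at the mature and 8 at the tetrad stage. Apart from the spread within stages, such a reversal requires the highest level to be at an end, so only the split between the ends is an observation. Together they took 0.539% ± 0.142 of reads in mononuclear and 0.845% ± 0.138 in dikaryophase libraries, against 0.767% ± 0.107 in tetrad and 1.46% ± 0.174 in mature libraries (each with its SD, n = 3). None of the 340 lower genes turned round on the linear scale.

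**Figure D4:**
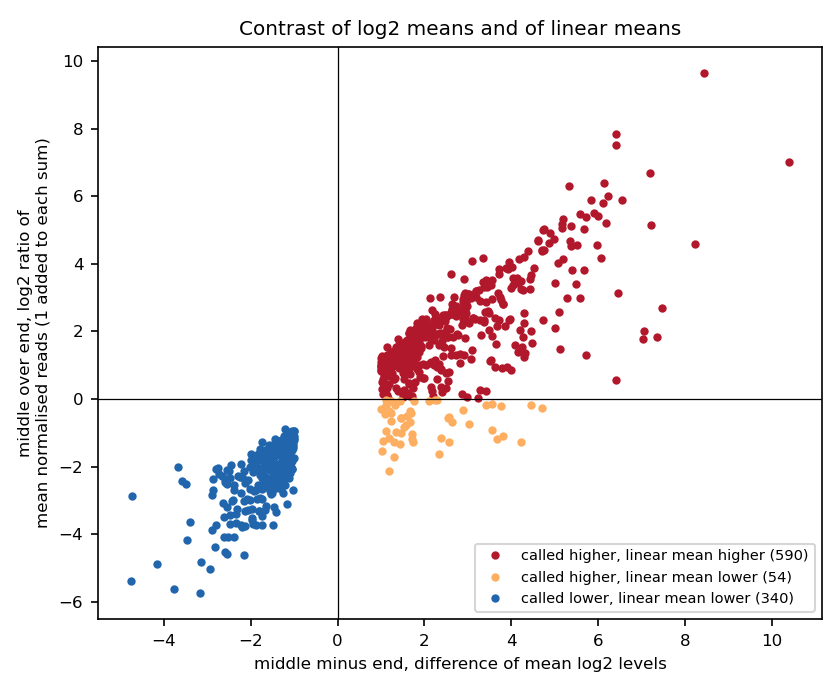
Difference between middle and end stages as the mean of log2 levels (x axis) and as the log2 ratio of mean normalised reads (y axis), 1 point per called gene. The 54 orange points were called higher on the log2 scale and lie below 0 on the linear one, and the 340 genes called lower lie below 0 on both.

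The higher genes took a large share of all reads, and a few abundant genes made up much of it: the 10 most abundant of them held 53.4% to 63.9% of the reads of the set in middle libraries and 46.1% to 57.6% in end libraries. The 644 genes took 18.7% ± 1.69 of reads in mononuclear and 12.7% ± 1.06 in dikaryophase libraries, against 5.04% ± 1.08 in tetrad and 6.76% ± 1.13 in mature libraries (each with its SD, n = 3). The 151 genes passing all 4 comparisons took 4.80% ± 0.790 and 3.18% ± 0.326 in mononuclear and dikaryophase libraries, against 0.236% ± 0.0200 and 0.722% ± 0.0511 in tetrad and mature libraries, and of the mononuclear share Cla019237 alone held 1.81%. The 340 lower genes took 0.392% ± 0.220 in mononuclear and 0.395% ± 0.0858 in dikaryophase libraries, against 3.40% ± 0.101 in tetrad and 1.16% ± 0.186 in mature libraries. The lower genes took 0.645% of reads in mononuclear replicate 2 and 0.242% and 0.289% in the other mononuclear libraries. The genes were selected on these libraries, so the shares describe them and were not tested.

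**Figure D5:**
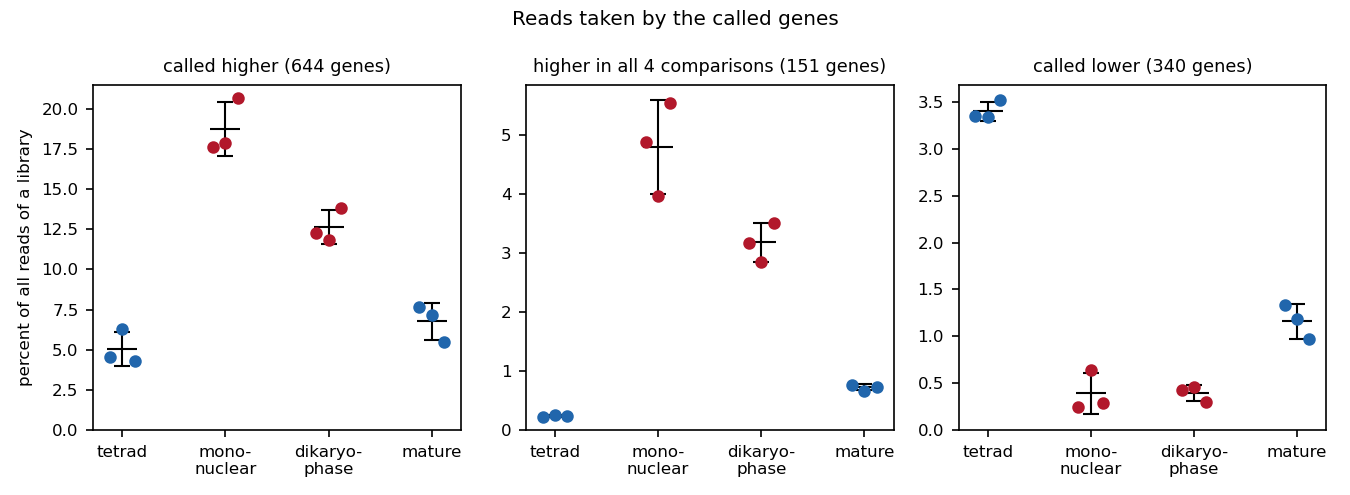
Percent of all reads of a library taken by the genes called higher, by those higher in all 4 pairwise comparisons and by those called lower, by stage in order of development; each point is a library, and bars are mean and SD of 3 libraries. The 6 middle libraries (red) lie above the 6 end libraries (blue) for both sets of higher genes and below them for the lower genes.

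The most abundant of the called genes passed only against the tetrad stage. Cla011778 had 721032, 602549 and 1227663 normalised reads in mononuclear and 1385313, 1622612 and 1841823 in dikaryophase libraries, against 36828, 42176 and 37916 in tetrad and 1595182, 1526354 and 794960.4 in mature libraries. The tetrad libraries stood far below all others, and the mature libraries overlapped both middle stages. Its log2 difference of 2.37 ± 0.23 (SE, limma adjusted p = 3.35e-05) was thus not one from both ends: against the mature stage alone it was -0.13 (limma adjusted p = 0.772). With quantile normalisation it was 1.78. Cla023393 had 1382284, 1217823 and 1736356 normalised reads in mononuclear and 1076207, 920009.8 and 1081294 in dikaryophase libraries, against 5447, 32310 and 26387 in tetrad and 745675, 788352 and 425516 in mature libraries. Its middle libraries were all above its end libraries, but against the mature stage alone the log2 difference of 0.94 did not pass (limma adjusted p = 0.156). Over both ends it was 3.56 ± 0.38 (SE, limma adjusted p = 7.62e-05).

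The 2 most abundant lower genes were high at the tetrad stage and low at maturity. Cla006201 had 9812, 46462 and 8796 normalised reads in mononuclear and 547, 153 and 198 in dikaryophase libraries, against 483516, 506028 and 529931 in tetrad and 289, 260.4 and 330 in mature libraries. The mature libraries lay below every mononuclear library and among the dikaryophase ones. Its log2 difference between middle and end was -2.59 ± 0.40 (SE, limma adjusted p = 0.00114), but against the mature stage alone it was 2.79 in the other direction (limma adjusted p = 0.00156). Cla015675 had the same course, with 2840.0, 14333 and 2309 normalised reads in mononuclear and 471, 274 and 347 in dikaryophase libraries, against 340841, 271063 and 486565 in tetrad and 340, 327 and 450.4 in mature libraries. Its log2 difference was -3.17 ± 0.38 over both ends (SE, limma adjusted p = 0.000188) and 1.78 against the mature stage alone (limma adjusted p = 0.0140). Of the middle libraries, mononuclear replicate 2 was the highest for each of these genes.

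Separation of all 6 middle from all 6 end libraries was found for 595 genes, 3.4% of those tested. Among the called genes it held for 260 of the 644 higher genes, where 2.35% of all genes tested separated in that direction, and for 35 of the 340 lower genes, where 1.05% did. Calling selects for such genes. Of the 151 genes higher in all 4 comparisons 147 were separated, as were all 8 of those lower in all 4.

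No gene switched fully between the middle and both ends at a high level. With off defined as 3 reads or fewer in every library of a group and on as 10 CPM or more in every library of the other, 0 genes switched in either direction, and with on set at 1 CPM a single gene did. This gene, Cla002260, was chosen for naming after its values were seen. It had 553, 246 and 738 reads in mononuclear and 415, 170.0 and 229 in dikaryophase libraries, against none in any tetrad or mature library. Its mean of 6.20 ± 3.32 CPM in the middle libraries (SD, n = 6) was at least 759-fold higher than the end libraries, against a floor of 3 reads over the 6 of them. Being off at 1 end is a looser condition, and it was counted over the higher genes with no on level required. At most 3 reads in each tetrad library were found for 44 of the 644 higher genes, and in each mature library for 14. The call favours such genes and their share over all genes tested was not worked out, so these counts are a description.

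The middle libraries drew more of their reads from a few genes. The 10 most abundant genes of a library took 10.3% ± 2.10 of its reads in middle libraries, with a range of 7.73% to 13.6%, against 6.62% ± 0.784 in end libraries, with a range of 5.38% to 7.81% (SD, n = 6 each). An exact two-sided permutation test over the 924 splits of 12 libraries gave p = 0.00433, adjusted p = 0.0173 over 4 library measures. The groups overlapped by 1 library on each side, dikaryophase replicate 2 and tetrad replicate 2. With mononuclear replicate 2, dikaryophase replicate 3 and mature replicate 3 left out together the difference was 3.50 percentage points and the exact permutation test no longer passed (adjusted p = 0.0635). The test treats the libraries of a group as exchangeable although they come from 2 stages, and the share was 8.65% ± 0.804 in dikaryophase and 12.0% ± 1.31 in mononuclear libraries (SD, n = 3 each).

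The effective number of genes, the exponential of the Shannon entropy of the read shares, was 4727 ± 730.5 in middle and 5647 ± 330 in end libraries (SD, n = 6 each; exact permutation test, adjusted p = 0.0433). By stage it was 4109 ± 380 in mononuclear and 5345 ± 212 in dikaryophase libraries, against 5479 ± 291 at the tetrad stage and 5814 ± 320 at maturity (with the SD of 3 libraries each), so that the mononuclear libraries stood lowest and the dikaryophase mean was within 1 SD of the tetrad mean. The call was lost in 8 of the 12 cases with a single library left out, all but those without tetrad replicate 2 or a dikaryophase library, with adjusted p of 0.0563 to 0.113 by the exact permutation test in those 8. The number of genes at 1 CPM or more, 16739 ± 159 in middle and 16695 ± 113 in end libraries, did not pass (exact permutation test, adjusted p = 0.589). Of the 10 genes with the highest mean CPM over the middle libraries, 7 were called higher there (3.68% of all genes tested). Of the 10 with the highest mean over the end libraries, 3 were called higher in the middle and 2 lower (1.94% of all genes tested), and 6 genes were in both lists. Both lists were picked by levels that the call itself uses, so these counts are a description.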

How the data were processed

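The authors deposited 1 table of log2 values per gene and library, and how the reads were aligned and counted, with which genome build, annotation and strand setting, is not given in the sources used here. How reads shared by near-identical or overlapping genes were divided is therefore unknown. The scale was read from the values: after undoing the log2 of a deposited value and taking off 1, the pseudocount, 100% of the values of each library were whole multiples of its smallest value above 0 (within 0.01 reads). They are thus read counts divided by a factor for the library, with 1 added before the log2. Reads and CPM were recovered from these steps.

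Groups and replicate numbers came from the labels. Genes reaching 1 CPM in 3 or more libraries were tested with limma 3.58.1 (R 4.3.3) on the deposited values, with 1 mean per stage, 8 residual degrees of freedom, variances moderated with a trend, and Benjamini-Hochberg adjustment within each comparison. The filter, thresholds, comparisons and naming rule were chosen with earlier results of these data known. Named were the 2 highest rises and the 2 deepest falls among called genes (at least 10 CPM, groups not overlapping), the 2 in each direction with the largest of their smallest pairwise differences among genes called in all 4 comparisons (at least 10 CPM), and the 2 in each direction with the highest mean CPM. The fit was tested on simulated counts. Within stages no 2 libraries agreed within counting noise (median squared deviation 5.59 to 27.5 in units of counting variance, against 0.455). Between the 2 middle stages, deviations from the stage mean correlated at 0.11 to 0.17 in all 3 same-numbered pairs and below 0 in all 6 others. Each library correlated best with its own number, and no other pair of stages showed this. Deviations of 3 libraries sum to 0, so positive pairs bring negative ones with them. Dikaryophase and mature libraries matched across the numbers: 1 with 2 at 0.15, 2 with 1 at 0.28 and 3 with 3 at 0.36. These values therefore do not show that the numbers pair libraries, and the labels do not say so. Gene lists by function were not used, since the IDs carry no names. Floors of reads cover counting error only, while each SE and SD includes the spread between libraries. Figures were drawn with matplotlib 3.10.9.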

Additional observations from a re-analysis of the deposited data

How the results depend on the processing

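The 644 higher and 340 lower genes stayed within 1.5 times of these counts under recomputed size factors, scaling by library size alone, quantile or median normalisation, either other filter (none, or 5 CPM), an offset of 0.1, limma-voom on the recovered reads and the replicate block. The replicate block gave 997 called genes. Over the 4 stages the numbers were not taken as pairing, since the labels do not say so. Deviations of different-numbered libraries correlated at -0.30 to 0.28 (median -0.02), over 0.1 in 4 of 36 pairs. Those of same-numbered libraries correlated at -0.11 to 0.36 (median 0.03), over 0.1 in 6 of 18 pairs. Between mononuclear and dikaryophase libraries all 3 such correlations were over 0.1, and a replicate block in these stages alone, added after seeing the data, gave 1017 called genes (647 higher, 370 lower; in all 4 comparisons 155 and 12). With it 649 genes were called higher in dikaryophase than in mononuclear libraries and 518 lower, against 605 and 506 without a block; of the 151 genes, 1 and 9 were, against 0 and 9. Adjusted p alone called 2971 genes (1540 higher, 1431 lower; in all 4 comparisons 235 higher, 38 lower). A log2 difference of at least 2 left 359 (291 higher, 68 lower; in all 4 comparisons 74 and 0; 20 with a lower linear mean). An adjusted p under 0.01 left 210 lower genes, 3 lower in all 4 comparisons and 31 with a lower linear mean. On log2(CPM + 1), where the offset of 1 CPM stands for 55.3 to 65.6 reads, 429 genes were called higher and 340 lower. Higher genes were then 55.8% of those called, against 65.4% in the main fit. On this scale 3 genes were lower in all 4 comparisons and 17 higher genes had a lower linear mean. Quantile normalisation gave 13 lower in all 4 comparisons. Other thresholds change the counts by construction, and the cause of the other shifts was not tested. With the tetrad stage as the only end stage 2136 genes were called (1173 higher, 963 lower), with the mature stage 2019 (1007 higher, 1012 lower), and with the mononuclear stage as the only middle stage 526 were lower. With the mature stage as the only end stage, log2 differences turned round to 2.79 for Cla006201, 1.78 for Cla015675 and -0.13 for Cla011778, and with the mononuclear stage as the only middle stage to 0.38 for Cla006201. Calls were lost without a change of direction for Cla014392 (-0.90) and Cla023393 (0.94) with the mature stage as the only end stage. The same held for Cla005976 (-1.30) with the dikaryophase and for Cla015675 (-1.33) with the mononuclear stage as the only middle stage. In the other 27 alternatives the 11 named genes kept their direction and call.

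Leaving out libraries in turn gave 856 to 1096 called genes, 580 to 644 higher and 273 to 452 lower, 114 to 164 higher and 2 to 16 lower in all 4 comparisons, and 41 to 53 with a lower linear mean. The difference in the share of the 10 most abundant genes was 3.09 to 4.25 percentage points, in the effective number of genes -1090.3 to -710 and in genes at 1 CPM 15.6 to 88.8. Without mononuclear replicate 2, dikaryophase replicate 3 and mature replicate 3 together, chosen after seeing the data as was log2(CPM + 1), the first was 3.50 and the next -810, and neither passed. Depth limits genes of few reads, whose log2 differences are drawn towards 0 by the offset.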

Other observations

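Separation of the groups and the call were different things. Of the 411 genes whose 6 middle libraries all lay above the 6 end libraries, 151 were not called, and 141 of these passed the adjusted p but not the fold threshold. Of the 184 genes whose middle libraries all lay below the end libraries, 149 were not called.

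The share of genes called changed with abundance, and these shares were not tested. Of the 47 genes with a mean of at least 1000 CPM over all libraries, 17 were called higher in the middle (36.2%) and 2 lower (4.26%). Between 100 and 1000 CPM, 100 of 2208 genes were called higher (4.53%) and 23 lower (1.04%), and between 10 and 100 CPM, 236 of 10187 were called higher (2.32%) and 147 lower (1.44%). Below 10 CPM, from 1 CPM up, 242 of 4636 genes were called higher (5.22%) and 149 lower (3.21%). Under 1 CPM, 49 of 406 genes were called higher (12.1%) and 19 lower (4.68%). The mean includes the middle libraries, which raise it for the higher genes.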
